A study of Homo sapiens with 4 samples.

Results

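The 43 genes described here encode the DNA replication licensing and S phase machinery. They were chosen by name, with earlier results of these data known. They range from the proteins that load and start the replicative helicase to the polymerases and the sliding clamp. The enzymes that supply nucleotides and the regulators of entry into S phase are also among them. All 43 were found among the 25609 genes of the deposited expression table, and all 43 had a mean of at least 0.5 RPKM (reads divided by exon length and by library size), as did 16590 genes in all. The samples were HK-2 cells (genotype WT), a human proximal tubule line immortalised with papillomavirus oncogenes, of which E7 inactivates the retinoblastoma protein. In 2 samples TGF-β1, a cytokine that drives fibrosis and restrains the division of many epithelial cells, was given at 20 ng/mL for 24 h. The other 2 were controls without it. Both groups were starved of serum for 24 h beforehand and were exposed to 100 μM 4-thiouridine, a uridine analogue that marks newly made RNA, for the last 20 h. The labels carry a single protocol text for all samples, and controls were taken to have had each step but the cytokine. The samples are numbered replicates with no separate cultures named, so the spread behind each p-value is that among these libraries and may be technical.

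Origins of replication are licensed in G1, when the origin recognition complex, CDC6 and CDT1 load the ring-shaped MCM2-7 helicase onto DNA. At the start of S phase CDC45 and the GINS complex join MCM2-7 and turn it into the active helicase, and polymerases α, δ and ε then copy the strands with the clamp PCNA, which RFC complexes load. Many of these genes are transcribed in a burst at the G1/S boundary by E2F transcription factors, which the retinoblastoma protein holds back until cyclin-dependent kinases release them.

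Whole reads recovered from the RPKM values summed to 4647468 and 5462783 in TGF-β1 replicates 1 and 2, against 3343705 and 4812261 in control replicates 1 and 2. The 43 genes drew 27173 and 30319 reads in the TGF-β1 libraries and 24595 and 34545 in the controls, and each had between 38 and 4782 reads in a library. Their mean levels ran from 4.08 to 253 RPKM with a median of 22.8 RPKM, and the lowest stood above 55.5% of all tested genes. Of the 5 epithelial markers 2 rose and 2 fell. The keratins KRT8 and KRT18 measured 167 and 183 RPKM and 138 and 160 RPKM with TGF-β1, against 71.9 and 80.6 RPKM and 109 and 111 RPKM in controls. The keratin KRT19 measured 24.98 and 25.9 RPKM with TGF-β1, against 73.2 and 74.2 RPKM in controls. The adhesion protein EPCAM measured 25.7 and 24.7 RPKM with TGF-β1, against 42.3 and 52.3 RPKM in controls. KRT8 and KRT19 passed in all 16 alternative settings, EPCAM in 15 and KRT18 (log2 0.43, adjusted p = 0.0429, limma) in 7. CDH1 lay between 0.499 and 1.22 RPKM and did not pass. Of the 11 proximal tubule markers 9 were found in the table. The renal factor PAX8 measured 15.5 and 14.7 RPKM with TGF-β1, against 44.8 and 42.2 RPKM in controls. The brush-border enzyme GGT1 measured 18.9 and 16.8 RPKM with TGF-β1 and 19.6 and 20.4 RPKM in controls. CUBN, AQP1, SLC34A1, ANPEP and MME lay below 0.5 RPKM in every library, and SLC5A2 reached 0.759 RPKM in control replicate 1. Of the fibroblast and pericyte markers LUM measured 8.76 and 6.74 RPKM with TGF-β1 and 12.1 and 12.9 RPKM in controls (log2 -0.67, adjusted p = 0.0567, limma; called in 8 of 16 alternative settings), and PDGFRB, DCN and THY1 lay below 0.5 RPKM. The endothelial markers VWF and CDH5 had 0 reads in all 4 libraries, and the 4 leukocyte markers in the table summed to 2.84 and 1.95 RPKM with TGF-β1 and 2.30 and 2.67 RPKM in controls. The part of these markers in the results below was not tested.

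With TGF-β1 most of the 43 genes had lower levels by a small amount, and 4 passed the test over all genes. SLBP, CDT1, DSCC1 and MCM6 fell, and 39 genes did not pass (limma on log2(RPKM + 0.5), adjusted p below 0.05 by the Benjamini-Hochberg method over 16590 genes). The 4 falls are 9.30% of the 43 genes, against 3.0% of all tested genes called lower. The tested genes include many at lower levels than the 43, whose median stood above 87.9% of tested genes. With only genes at a mean of at least 2 RPKM, 565 of 10440 were called lower, among them 7 of the 43. None of the 43 rose by limma, where 6.12% of all tested genes did. At an unadjusted p below 0.05 the counts were 13 lower and 0 higher, where 9.39% of all tested genes were lower and 15.6% higher, and limma's voom on the recovered reads also called 0 higher. The log2 fold change was below 0 in 37 of the 43 genes, with a median of -0.15 and a range from -0.58 to 0.13. Over all tested genes the median was 0.03 and 47.3% lay below 0. Both TGF-β1 libraries lay below both controls in 24 of the 43 genes (55.8%), against 24.6% of all tested genes. In 1 of the 43, POLD1, both lay above both controls, against 29.5% of all tested genes. The 43 genes were chosen with earlier results of these data known, so these shares are descriptions only. Summed over the 43 genes, RPKM came to 1961 and 1938 in the TGF-β1 libraries, against 2182 and 2249.5 in the controls, a difference of -12.0% between the group means. In bulk RNA, fewer cells in S phase and less of these transcripts per cell cannot be told apart.

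**Figure D1:**
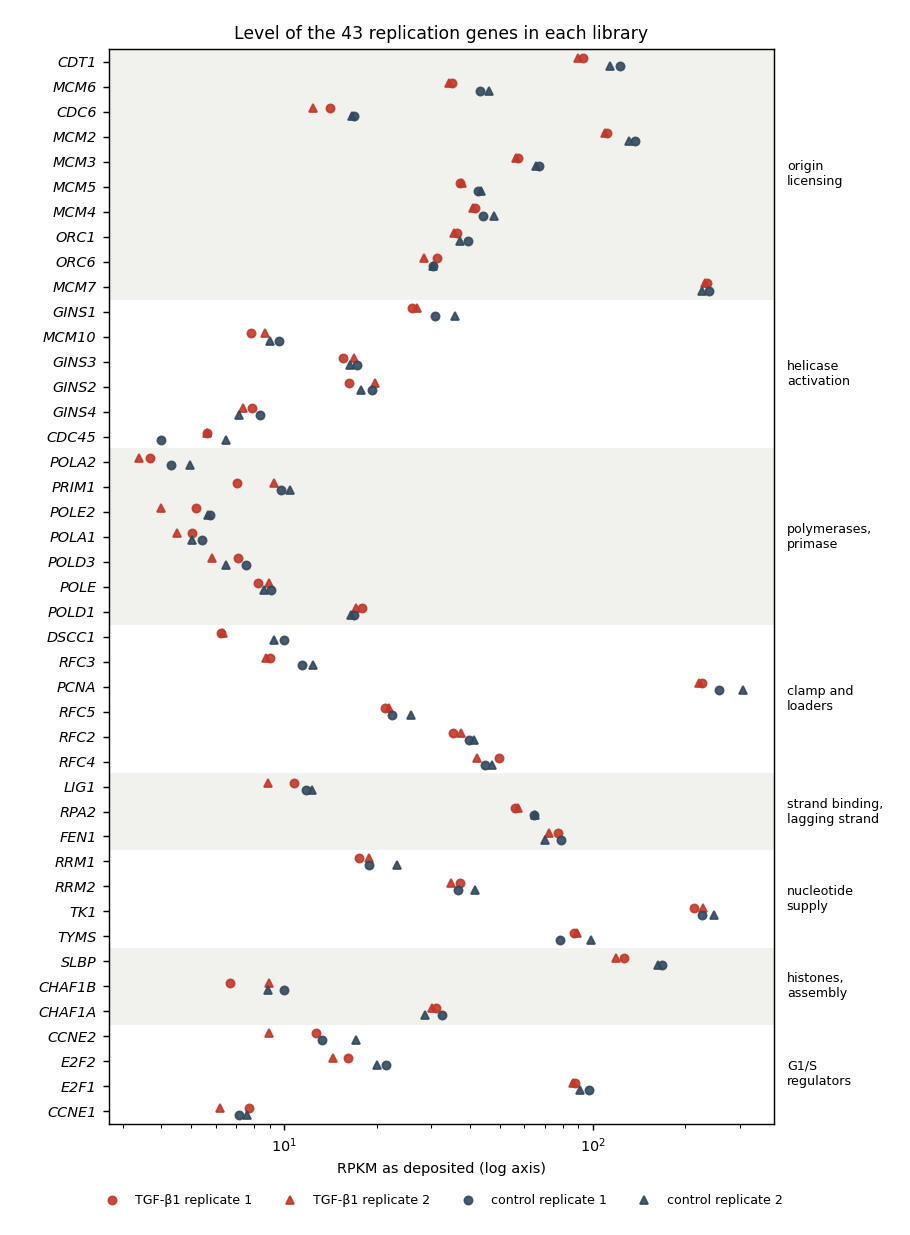
Level of each of the 43 genes in the 4 libraries, in RPKM on a log axis, with genes ordered by role and, within a role, by fold change. Red marks are TGF-β1 libraries and dark marks controls, circles for replicate 1 and triangles for replicate 2. In SLBP, CDT1, DSCC1 and MCM6 both red marks lie left of both dark ones, and in MCM7, FEN1 and TYMS the marks of the groups interleave.

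**Figure D2:**
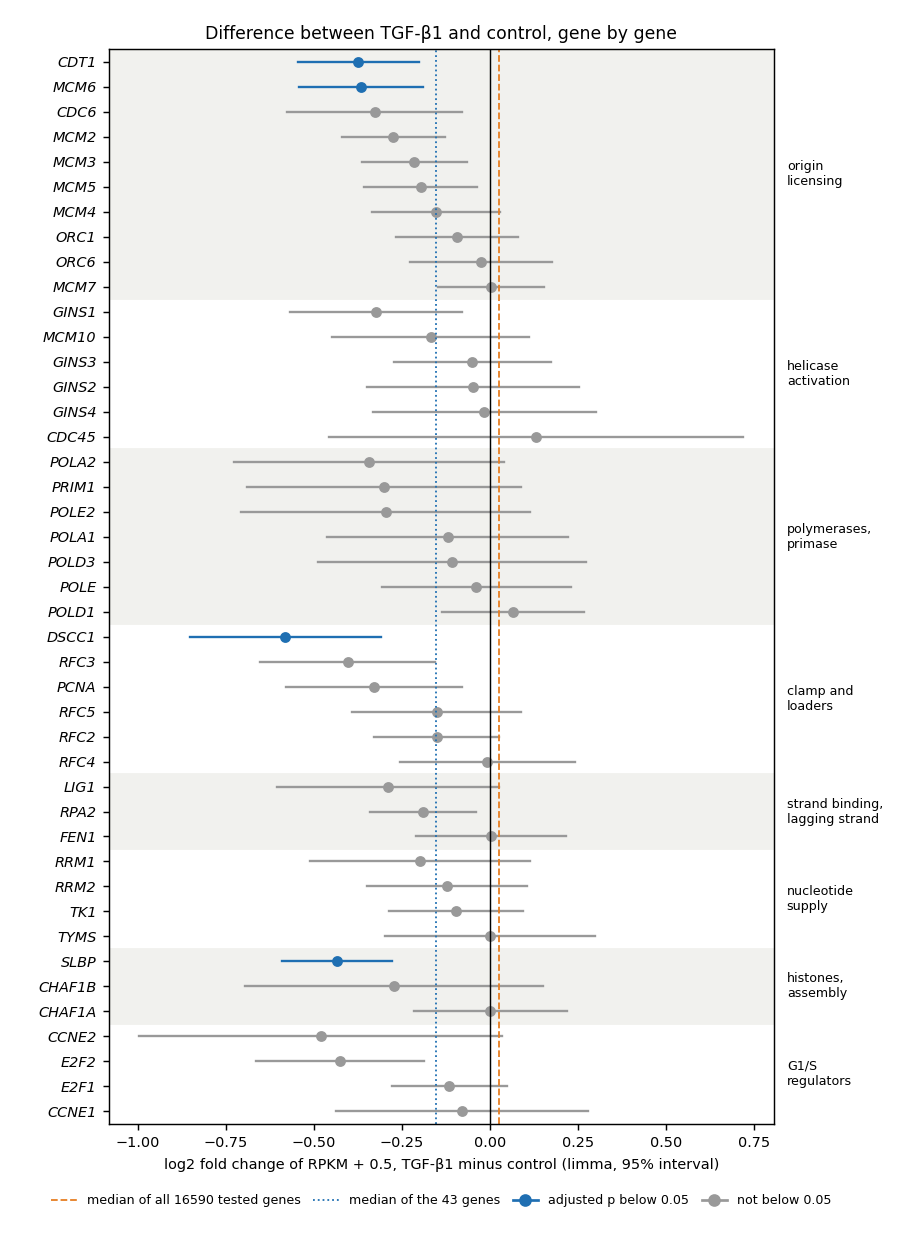
Log2 fold change of RPKM + 0.5, TGF-β1 minus control, for the 43 genes, with 95% confidence intervals from limma on 2 libraries per group. Blue genes passed an adjusted p of 0.05. The dotted line is the median of the 43 genes (-0.15) and the dashed line that of all 16590 tested genes (0.03).

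The 10 licensing genes held 2 of the calls. CDT1, the loading factor that is destroyed once S phase begins, lies on chromosome 16 from 88803213 to 88809258 (hg38, plus strand, ENSG00000167513.8). It measured 93.4 and 89.5 RPKM with TGF-β1, against 123 and 114 RPKM in controls. Both treated libraries were below both controls, with 91.5 ± 2.80 RPKM under TGF-β1 and 119 ± 6.25 RPKM in controls (SD, n = 2 each). On the log2 scale the fold change of CDT1 came to -0.37 (standard error 0.07, 95% interval from -0.54 to -0.20, adjusted p = 0.034 by limma).

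MCM6, a subunit of the helicase ring (chromosome 2, 135839626 to 135876426, minus strand, ENSG00000076003.4), measured 34.9 and 34.3 RPKM with TGF-β1 and 43.3 and 46.3 RPKM in controls. Its group means were 34.6 ± 0.455 RPKM under TGF-β1 and 44.8 ± 2.10 RPKM in controls (SD, n = 2 each), and the groups did not overlap. On the log2 scale the fold change of MCM6 came to -0.37 (standard error 0.07, 95% interval from -0.54 to -0.19, adjusted p = 0.0386 by limma). The ring binds DNA as a complex with a single copy of each of its 6 subunits, MCM2 to MCM7, and the other 5 did not pass. MCM2 measured 112 and 109.9 RPKM with TGF-β1 and 137 and 131 RPKM in controls, just outside the threshold (log2 -0.27, adjusted p = 0.0509, limma). MCM3 had a log2 fold change of -0.21, MCM5 of -0.20 and MCM4 of -0.15, each with both TGF-β1 libraries below both controls. MCM7 measured 235 and 232 RPKM with TGF-β1 and 239 and 227 RPKM in controls, and the groups overlapped. Its log2 fold change came to 0.00 (95% interval from -0.15 to 0.15). Per kilobase of exon MCM7 was the most abundant subunit in all 4 libraries. It stood 6.72 and 6.76 times above the least abundant, MCM6, in the TGF-β1 libraries, and 5.63 and 5.21 times above the least abundant in controls, which was MCM5. These levels depend on the annotated exon length, which runs from 3650 bases for MCM3 to 7338 bases for MCM5.

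CDC6, the ATPase that recruits CDT1 and the helicase to origins, measured 14.1 and 12.4 RPKM with TGF-β1 and 16.8 and 16.6 RPKM in controls (log2 -0.33, adjusted p = 0.115, limma). The origin recognition subunits ORC1 and ORC6 had log2 fold changes of -0.09 and -0.03. ORC6 overlapped between the groups, and ORC1 did not. In all, 9 of the 10 licensing genes had a log2 fold change below 0, with a median of -0.21, and 8 did not overlap and were lower. Over all tested genes 47.3% lay below 0, and 24.6% did not overlap and were lower.

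The promoters of the called genes whose sequence is given, and that of MCM7, are shown because replication genes share E2F binding sites. Each window runs from 250 bases before to 50 bases after the RefSeq start of transcription, on the gene's own strand, in GRCh38.p14. Capitals mark the E2F words TTTCCCGC, TTTCGCGC, TTTGCCGC and TTTGGCGC on either strand. The windows are chr4:1712270-1712569 (minus strand) for SLBP, chr16:88803539-88803838 (plus) for CDT1, chr2:135876394-135876693 (minus) for MCM6 and chr7:100101348-100101647 (minus) for MCM7, which was added after its values were seen.
SLBP: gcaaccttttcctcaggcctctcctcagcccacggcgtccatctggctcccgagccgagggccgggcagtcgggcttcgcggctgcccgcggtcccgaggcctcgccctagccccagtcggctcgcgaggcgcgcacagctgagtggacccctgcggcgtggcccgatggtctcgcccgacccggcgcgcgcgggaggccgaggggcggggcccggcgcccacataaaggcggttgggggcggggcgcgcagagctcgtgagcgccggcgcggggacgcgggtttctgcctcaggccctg
CDT1: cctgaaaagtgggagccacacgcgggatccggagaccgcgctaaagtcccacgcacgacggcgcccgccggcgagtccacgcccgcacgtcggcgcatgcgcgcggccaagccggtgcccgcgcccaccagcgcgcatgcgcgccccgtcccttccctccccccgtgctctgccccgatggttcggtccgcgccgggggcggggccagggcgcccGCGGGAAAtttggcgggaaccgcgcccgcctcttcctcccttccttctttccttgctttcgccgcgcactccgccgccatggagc
MCM6: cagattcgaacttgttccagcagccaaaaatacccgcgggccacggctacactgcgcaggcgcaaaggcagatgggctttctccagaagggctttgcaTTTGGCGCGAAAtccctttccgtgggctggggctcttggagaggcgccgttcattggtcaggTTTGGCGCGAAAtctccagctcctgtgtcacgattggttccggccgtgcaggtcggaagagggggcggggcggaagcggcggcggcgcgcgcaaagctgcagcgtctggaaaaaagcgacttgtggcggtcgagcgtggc
MCM7: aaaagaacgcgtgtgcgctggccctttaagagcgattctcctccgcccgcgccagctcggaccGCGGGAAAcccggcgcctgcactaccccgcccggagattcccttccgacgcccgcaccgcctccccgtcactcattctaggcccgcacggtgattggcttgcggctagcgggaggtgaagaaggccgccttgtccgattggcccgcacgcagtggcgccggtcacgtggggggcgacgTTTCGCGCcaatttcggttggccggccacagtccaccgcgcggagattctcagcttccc

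The CDT1 window holds a single E2F word, on the opposite strand, that begins 35 bases before the start. The MCM6 window holds 2 stretches, beginning 152 and 90 bases before the start, in each of which TTTGGCGC on the gene's strand overlaps TTTCGCGC on the other. The MCM7 window holds TTTCCCGC on the other strand, beginning 187 bases before the start, and TTTCGCGC on its own strand, beginning 9 bases before it. The SLBP window holds none of the 4 words. Promoters of 36 of the 43 genes were matched by symbol, and 19 of them (52.8%) hold an E2F word, against 3.31% of the 35116 promoters in the table. The sequence CCAAT, on either strand, was in 19 of the 36 (52.8%) and in 34.6% of all promoters. The sequence TTTGAA, part of the cell cycle element of many G2/M genes, was in 1 of the 36 (2.78%) and in 15.2% of all promoters. The shares of all promoters count every listed promoter, whether or not its gene is expressed here, whereas each member has 1 promoter. The median log2 fold change was -0.29 in the 19 genes with an E2F word and -0.10 in the 17 without. For CCAAT the order was the other way round, with -0.12 in the 19 genes that hold it and -0.27 in the 17 that do not, and neither split was tested. MCM7 and TYMS, with log2 fold changes of 0.00, hold such a word. A match describes the letters in the window and does not show that a factor binds there.

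An intron of MCM7 is also known as the home of a microRNA cluster related to miR-17 and miR-20a, the microRNAs in the title of the study. In GENCODE 29 MIR25, MIR93 and MIR106B lie within MCM7 on its strand, and none of the 3 overlaps an annotated MCM7 exon. The mature sequences from RefSeq (GRCh38.p14) are shown with the seed, bases 2 to 8, in capitals.
miR-106b-5p: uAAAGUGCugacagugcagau
miR-93-5p: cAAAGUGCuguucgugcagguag
miR-25-3p: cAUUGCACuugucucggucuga
miR-17-5p: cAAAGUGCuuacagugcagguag
miR-20a-5p: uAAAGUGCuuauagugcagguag

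The forms miR-106b-5p (chr7:100094043-100094063, minus strand) and miR-93-5p (chr7:100093815-100093837, minus strand) share the seed AAAGUGC with miR-17-5p (chr13:91350618-91350640, plus strand) and miR-20a-5p (chr13:91351072-91351094, plus strand). The seed of miR-25-3p (chr7:100093571-100093592, minus strand) is AUUGCAC. At the hairpin loci the table gave few reads. MIR25 had 17 and 12 reads with TGF-β1 and 6 and 12 in controls, MIR93 had 6 and 1 with TGF-β1 and 0 and 1 in controls, and MIR106B had 0 and 1 with TGF-β1 and 2 and 0 in controls. None of the 3 loci passed (adjusted p = 0.269 for MIR25, 0.285 for MIR93 and 0.778 for MIR106B, limma). Mature microRNAs were not analysed here.

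None of the 6 helicase activation genes passed. GINS1, a subunit of the GINS complex, measured 26.1 and 26.9 RPKM with TGF-β1 and 30.8 and 35.9 RPKM in controls, with no overlap (log2 -0.32, adjusted p = 0.114, limma). MCM10, which helps to start the assembled helicase, was likewise lower without overlap (log2 -0.17, adjusted p = 0.425, limma). GINS2, GINS3 and GINS4 had log2 fold changes from -0.05 to -0.02, with overlapping groups. CDC45, the helicase partner, measured 5.62 and 5.63 RPKM with TGF-β1 and 3.99 and 6.47 RPKM in controls. It rested on 66 and 75 reads with TGF-β1 and 38 and 86 reads in controls, and its interval ran from -0.46 to 0.72 on the log2 scale.

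None of the 7 polymerase and primase genes passed. Their mean levels over the 4 libraries ran from 4.08 RPKM for POLA2 to 17.1 RPKM for POLD1. POLA2, the B subunit of polymerase α, measured 3.68 and 3.39 RPKM with TGF-β1 and 4.30 and 4.96 RPKM in controls (log2 -0.34, adjusted p = 0.244, limma). PRIM1, the catalytic primase subunit (log2 -0.30), and POLE2, the second subunit of polymerase ε (log2 -0.30), were also lower in both TGF-β1 libraries than in both controls. The catalytic subunits POLA1 (log2 -0.12), POLE (-0.04) and POLD1 (0.07) and the accessory subunit POLD3 (-0.11) lay closer to 0. POLD1, the catalytic subunit of polymerase δ, measured 17.9 and 17.1 RPKM with TGF-β1 and 16.9 and 16.4 RPKM in controls. Its interval, from -0.14 to 0.27 on the log2 scale, included 0. The intervals of POLA2, PRIM1 and POLE2 reached as low as -0.73, -0.69 and -0.71 on the log2 scale, so falls of that size lie within their error.

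All 6 clamp and clamp loader genes had log2 fold changes below 0, with a median of -0.24, where 47.3% of all tested genes lay below 0. In 5 of the 6 both TGF-β1 libraries lay below both controls, against 24.6% of all tested genes. DSCC1, a subunit of the alternative clamp loader that acts in sister chromatid cohesion (chromosome 8, 119833976 to 119856010, minus strand, ENSG00000136982.5), showed the largest fall of the 43. It measured 6.24 and 6.32 RPKM with TGF-β1, against 10.0 and 9.28 RPKM in controls, from 67 and 77 reads and from 88 and 113 reads. The group means were 6.28 ± 0.0590 RPKM under TGF-β1 and 9.65 ± 0.530 RPKM in controls (SD, n = 2 each). On the log2 scale the fold change of DSCC1 came to -0.58 (standard error 0.11, 95% interval from -0.85 to -0.31, adjusted p = 0.0359 by limma). RFC3, a small subunit of the main loader, measured 9.0 and 8.76 RPKM with TGF-β1 and 11.4 and 12.4 RPKM in controls (log2 -0.40, adjusted p = 0.0706, limma). PCNA, the clamp itself, had the highest mean over the 4 libraries and measured 226 and 222 RPKM with TGF-β1, against 257 and 308 RPKM in controls (log2 -0.33, adjusted p = 0.115, limma). The controls differed more from each other than the TGF-β1 libraries did, and without control replicate 1 PCNA passed (log2 -0.46, adjusted p = 0.0436, limma). Without control replicate 2 its log2 fold change was -0.20 (adjusted p = 0.226, limma). RFC2 and RFC5 had log2 fold changes of -0.15 each, and RFC4, at 49.7 and 42.2 RPKM with TGF-β1 and 44.9 and 47.2 RPKM in controls, overlapped between the groups.

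RPA2, a subunit of the protein that coats single-stranded DNA, measured 56.0 and 57.4 RPKM with TGF-β1 and 64.5 and 65.0 RPKM in controls (log2 -0.19, adjusted p = 0.123, limma). LIG1, the ligase that joins Okazaki fragments, measured 10.8 and 8.86 RPKM with TGF-β1 and 11.8 and 12.3 RPKM in controls (log2 -0.29, adjusted p = 0.233, limma). Neither gene overlapped between the groups. FEN1, the nuclease that trims the fragments before ligation, measured 77.4 and 72.4 RPKM with TGF-β1 and 79.3 and 70.4 RPKM in controls, with a log2 fold change of 0.00.

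The 4 nucleotide supply genes overlapped between the groups, and none passed. TYMS, which makes thymidylate, measured 87.3 and 89.1 RPKM with TGF-β1, both between the control values of 78.6 and 98.9 RPKM. TK1, the thymidine kinase of S phase, measured 213 and 229 RPKM with TGF-β1 and 226 and 247 RPKM in controls. The ribonucleotide reductase subunits RRM1 and RRM2 had log2 fold changes of -0.20 and -0.12. These were -0.35 and -0.21 without control replicate 1, and -0.0512 and -0.0328 without control replicate 2.

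SLBP, which binds the stem-loop at the end of replication-dependent histone mRNAs and is needed to process and translate them, had the smallest p of the 43. The gene lies on chromosome 4 from 1692800 to 1712555 (hg38, minus strand, ENSG00000163950.12). It measured 126 and 119 RPKM with TGF-β1, against 168 and 163 RPKM in controls. The groups were well apart, at 123 ± 5.06 RPKM under TGF-β1 and 166 ± 3.71 RPKM in controls (SD, n = 2 each). On the log2 scale the fold change of SLBP came to -0.43 (standard error 0.06, 95% interval from -0.59 to -0.28, adjusted p = 0.0194 by limma). The chromatin assembly factor subunits, which place new histones behind the fork, did not pass. CHAF1A measured 31.0 and 30.1 RPKM with TGF-β1 and 32.4 and 28.7 RPKM in controls. CHAF1B measured 6.65 and 8.94 RPKM with TGF-β1 and 10.0 and 8.88 RPKM in controls, so the groups overlapped.

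Of the regulators of entry into S phase, none of the 4 passed. E2F2, an activating E2F, measured 16.1 and 14.4 RPKM with TGF-β1 and 21.3 and 19.9 RPKM in controls (log2 -0.43, adjusted p = 0.0567, limma). E2F1 measured 87.8 and 86.2 RPKM with TGF-β1 and 97.7 and 91.1 RPKM in controls (log2 -0.12). Both E2F genes were lower in each TGF-β1 library than in each control. Of the E-type cyclins, which activate CDK2, CCNE2 measured 12.7 and 8.96 RPKM with TGF-β1 and 13.3 and 17.1 RPKM in controls (log2 -0.48, adjusted p = 0.227, limma). Its interval was wide, from -0.996 to 0.0346. CCNE1 measured 7.69 and 6.20 RPKM with TGF-β1 and 7.11 and 7.55 RPKM in controls.

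Across the 43 genes the fold change did not follow the level (Spearman's rho 0.05 across genes of the same 4 libraries, a description only), whereas standard errors were larger at low levels (rho -0.80). The 95% interval lay below 0 in 13 genes and above a 1.5-fold fall in 33.

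Other genes of the same processes showed few calls by limma, which called 6.12% of all tested genes higher and 3.0% lower. Of 15 other origin and helicase factors 0 passed by limma, and the smallest p belonged to ORC5 (log2 -0.42, adjusted p = 0.115). Of 19 other fork and polymerase factors 0 passed, and the smallest p belonged to POLE4, a histone-fold subunit of polymerase ε (log2 0.44, adjusted p = 0.0536, limma). Of 8 other histone chaperones and chromatin factors and 13 fork protection and recombination genes 0 passed, and ASF1B (log2 -0.12) and BARD1 (-0.35) had the smallest p in each. At an unadjusted p below 0.05 the origin list held 0 higher and 3 lower genes and the fork and polymerase list 2 and 2. The chaperone list held 0 and 0 and the fork protection list 0 and 1. Over all tested genes 15.6% were higher and 9.39% lower at that threshold. With voom on the recovered reads and the authors' library sizes the calls were 0 higher and 1 lower, 2 and 2, 0 and 0, and 0 and 1 in the same order, where that fit called 12.2% of all tested genes higher and 8.20% lower. Of 11 other nucleotide supply enzymes 1, TK2, rose and 0 fell by limma. At an unadjusted p below 0.05 that list held 2 higher and 5 lower genes, and voom with the authors' library sizes called 2 higher and 5 lower. TK2, the mitochondrial thymidine kinase, measured 7.20 and 7.84 RPKM with TGF-β1, against 1.5 and 1.85 RPKM in controls (log2 1.88, adjusted p = 0.00555, limma), and passed in all 16 alternative settings. The medians of the 5 lists ran from -0.19 to -0.03. A log2 fold change below 0 was found in 11 of 15 origin, 12 of 19 fork and polymerase and 8 of 11 nucleotide supply genes. The same held for 6 of 8 chaperone and 10 of 13 fork protection genes, against 47.3% of all tested genes. Small falls were thus not confined to the 43 genes.

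Among 10 tested E2F, DP and pocket protein genes only TFDP1, the dimerisation partner of E2F proteins, passed. It measured 39.1 and 40.7 RPKM with TGF-β1, against 50.8 and 50.9 RPKM in controls (log2 -0.35, adjusted p = 0.0353, limma), and it passed in 11 of 16 alternatives, though in none that left out a library. RB1 measured 2.05 and 2.05 RPKM with TGF-β1 and 2.13 and 2.88 RPKM in controls (log2 -0.23, adjusted p = 0.566, limma). Of 18 G1/S kinases and their regulators 3 rose and 2 fell, where 6.12% of all tested genes rose and 3.0% fell. The CDK4 and CDK6 inhibitor CDKN2B measured 21.8 and 20.7 RPKM with TGF-β1 and 3.82 and 2.39 RPKM in controls (log2 2.62, adjusted p = 0.00447, limma). The inhibitor locus CDKN2A measured 151 and 150.0 RPKM with TGF-β1 and 87.4 and 90.1 RPKM in controls (log2 0.76, adjusted p = 0.00369, limma). Cyclin D1, CCND1, measured 13.6 and 13.4 RPKM with TGF-β1 and 2.96 and 3.37 RPKM in controls (log2 1.93, adjusted p = 0.0028, limma). The 2 that fell were SKP2, a ubiquitin ligase subunit that marks CDK inhibitors for destruction (log2 -0.62, adjusted p = 0.0368), and the inhibitor CDKN1C (log2 -0.87, adjusted p = 0.0378, limma). SKP2 passed in 9 of 16 alternatives, though in none that left out a library, and CDKN1C passed in 12. CDKN2A passed in 15, and CDKN2B and CCND1 in all 16. CDKN1A, the p21 inhibitor, did not pass (log2 -0.18, adjusted p = 0.359, limma).

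Of 15 mitotic genes 3 rose and 0 fell by limma, against 6.12% and 3.0% of all tested genes. At an unadjusted p below 0.05 the counts were 6 higher and 0 lower, against 15.6% and 9.39% of all tested genes. Their median log2 fold change was 0.20, and 3 of them had a log2 fold change below 0. AURKB, the kinase of the chromosomal passenger complex, measured 152 and 153 RPKM with TGF-β1 and 119 and 112 RPKM in controls (log2 0.40, adjusted p = 0.0235, limma). CCNB1, the mitotic cyclin, measured 116 and 118 RPKM with TGF-β1 and 80.9 and 89.4 RPKM in controls (log2 0.45, adjusted p = 0.0249, limma), and the kinase PLK1 40.2 and 43.3 RPKM with TGF-β1 and 28.3 and 31.4 RPKM in controls (log2 0.48, adjusted p = 0.0329, limma). CCNB1 passed in 11 of 16 alternatives, and AURKB and PLK1 in 9 each. With scaling by total recovered reads 1 mitotic gene rose and 1 fell, and with quantile normalisation 0 rose and 1 fell. The median log2 fold change of the mitotic list was 0.03 with total reads and 0.07 with quantile normalisation. It was 0.16 with median-of-ratios and 0.14 with upper-quartile scaling. MKI67, a marker of cycling cells, measured 109 and 119.6 RPKM with TGF-β1 and 114 and 99.5 RPKM in controls (log2 0.09, adjusted p = 0.597, limma), and its sign changed in 4 of 16 settings. The difference between the mitotic and the replication list was not tested.

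**Figure D3:**
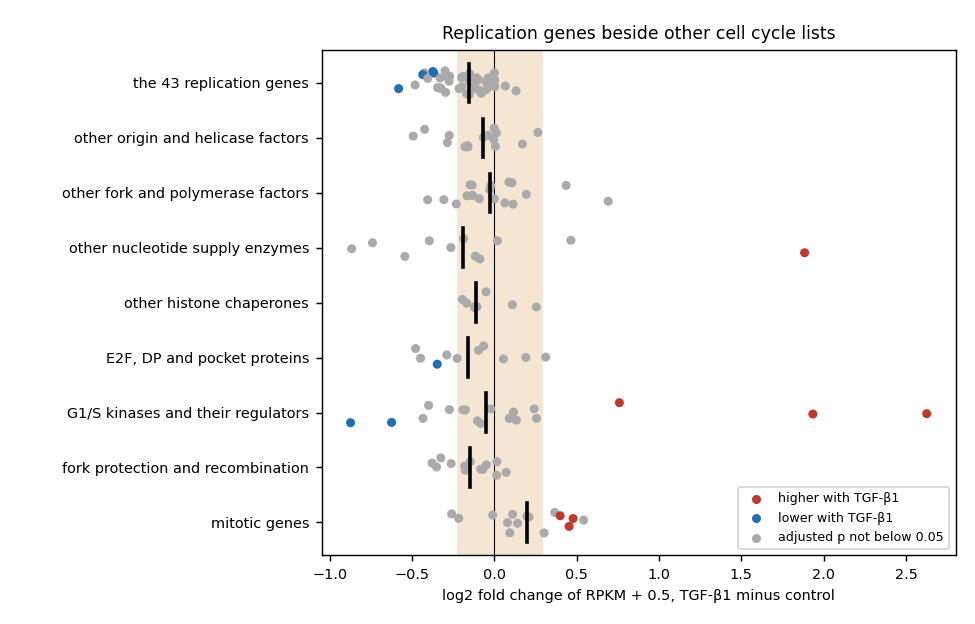
Log2 fold change of RPKM + 0.5, TGF-β1 minus control, of each tested gene in the replication list and in 8 other lists, with vertical spread added for legibility. Bars are list medians, the shaded band holds the middle of all 16590 tested genes, from -0.22 to 0.29, and coloured points passed an adjusted p of 0.05 (red higher, blue lower). The replication genes form a narrow group left of 0 with a median of -0.15, and 12 of the 15 mitotic genes lie right of 0; under total-read scaling 1 mitotic gene rose and 1 fell.

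How many replication genes are called depends on the scaling and on single libraries. The authors divided by library sizes 0.894 and 0.862 times the recovered reads in TGF-β1 replicates 1 and 2, and 1.01 and 0.977 times in the controls, which raises RPKM with TGF-β1 relative to a scaling by total reads. Scaled by total recovered reads, 15 of the 43 genes fell, against 5.32% of all tested genes, and all 43 had a log2 fold change below 0. That scaling shifted the median of all genes by -0.15. The share of higher genes among all calls was 42.6% with that scaling and 67.1% as deposited. With quantile normalisation 15 fell as well, against 4.14% of all tested genes, and the share of higher genes was 50.4%. The median of the 43 genes lay below that of all tested genes by 0.18 as deposited, by 0.20 with total reads, by 0.18 with median-of-ratios, by 0.19 with upper-quartile scaling and by 0.29 with quantile normalisation. Leaving out a library also reduced the calls. When TGF-β1 replicate 1 was left out 1 gene (SLBP) passed, and when TGF-β1 replicate 2 was left out 0 did. Omitting control replicate 1 left 1 call (PCNA), and omitting control replicate 2 left 2 (CDT1 and SLBP).

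**Figure D4:**
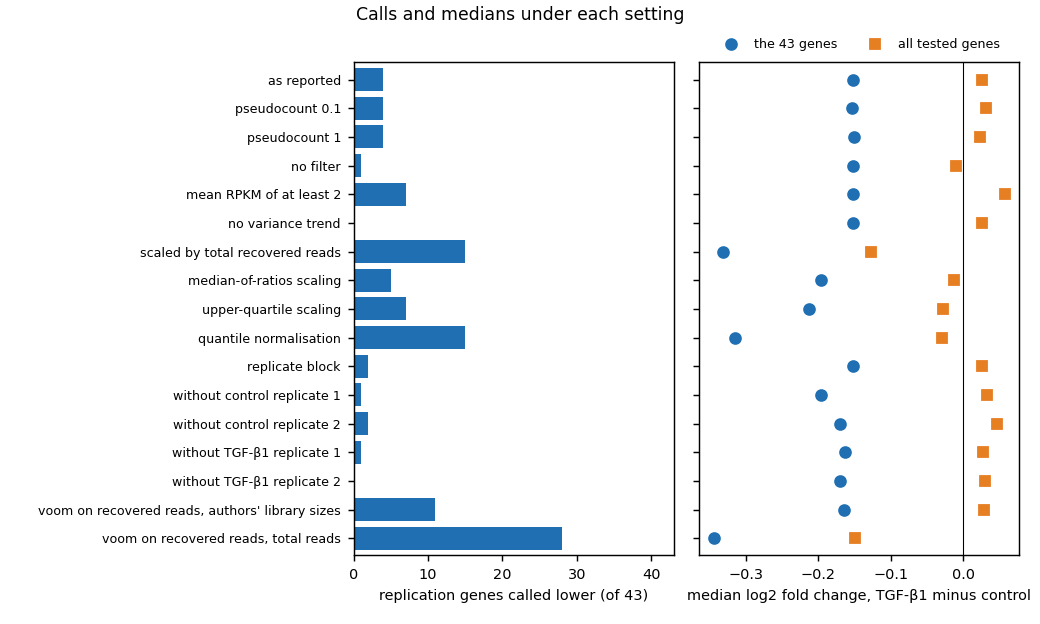
Left, the number of the 43 replication genes called lower (adjusted p below 0.05) as reported and under 16 alternative settings, from 0 to 28. The 28 came from limma voom at total reads, which called 2783 of all 16527 tested genes lower. Right, the median log2 fold change, TGF-β1 minus control, of the 43 genes (circles) and of all tested genes (squares) in the same settings. The circles lie left of the squares in each setting shown.

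When 1 library was left out, the log2 fold change of 30 of the 43 genes moved by more than 1.5 times in at least 1 of the 4 fits. It moved by less in the other 13 genes, among them the 4 that passed. The move is measured relative to the gene's own fold change, so genes with a small fold change exceed the bound readily. A gene tends to pass when its replicates differ little beside its fold change, so this split is no separate support for the calls.

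None of the 4 calls held in every setting. SLBP passed in 13 of 16 alternatives, CDT1 in 11, and MCM6 and DSCC1 in 9 each. All 4 were lost when limma was run with no trend of variance on expression (adjusted p = 0.0935 to 0.19, limma) and without TGF-β1 replicate 2 (0.0776 to 0.159). The direction did not change: the log2 fold change stayed between -0.71 and -0.39 for SLBP, -0.62 and -0.32 for CDT1, -0.79 and -0.53 for DSCC1 and -0.56 and -0.32 for MCM6. MCM2 and E2F2, just outside the threshold, passed in 7 and 5 alternatives.

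Some genes share sequence or position with others, and no source used here says how the authors assigned such reads. Of the 50-base words in their transcripts, POLA2 shares 34.7%, RRM2 20.2% and PRIM1 11.9% with another annotated gene, and CDT1 shares 2.97%. SLBP, DSCC1 and MCM6 share 0%. On the opposite strand, exons of ENOSF1 cover 39.1% of the exon bases of TYMS and those of INTS8 37.0% of CCNE2. The library kit keeps strand, per the labels, but no source used here says whether the counting used it, and the levels of TYMS and CCNE2 are uncertain.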

How the data were processed

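Total RNA from 2 TGF-β1 and 2 control samples of HK-2 cells was sequenced. The authors deposited 1 table of RPKM values per gene with versioned Ensembl identifiers. Build hg38 and the tools STAR 2.7.1a, bcl2fastq 2.20.0.422 and DESeq2 come from the submitters' processing notes, which give them no role here. Annotation and counting are not stated in the sources used. Symbols were found for 25312 of 25609 genes. Reads were recovered for 25498 genes (99.6%). Of these, 23853 had the same identifier version in GENCODE 29, among them 40 of the 43. Their RPKM values were multiplied by exon length and divided by a factor per library. After subtracting 0.5 they fell within 0.01 of whole reads, with a wider tolerance at high counts. For the other genes a length was searched for that made the values of all 4 libraries whole, so their whole reads are no check of the method. Confidence intervals are limma's and rest on the spread between libraries.

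Values were tested as log2(RPKM + 0.5) in genes with a mean of at least 0.5 RPKM, with limma 3.58.1 in R 4.3.3 (empirical Bayes with a variance trend) and Benjamini-Hochberg adjustment. A fold change on this scale understates that of low genes. The fit was tested on simulated data with a fixed spread between replicates and 50 genes changed at each fold. It recovered 0 of them at 1.25-fold, 3 at 1.5-fold, 21 at 2-fold and 32 at 4-fold. The genes changed among the 15828 simulated were fewer than the 1513 called in the real fit, which makes the adjusted threshold stricter. These rates are therefore not those of the real fit. Small changes were mostly missed there, so not passing does not show that a gene was unchanged. Every member is accounted for, and members that passed are given in each library. From the other lists up to 4 genes per direction with the smallest p are named, or the single smallest p where none passed, and MKI67, CDKN1A, CDKN2B, CCND1 and RB1 in any case. Promoters are shown for the 3 called members with the smallest p outside chromosome 8. The members and lists were chosen with earlier results of these data known. Alternatives were other pseudocounts, filters and scalings, no variance trend, a replicate block and leaving out each library. Fits of limma voom to the recovered reads were added after seeing the data.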

Additional observations from a re-analysis of the deposited data

How the results depend on the processing

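The 16 alternatives comprised 14 planned ones and 2 voom fits chosen after seeing the data. The deposited values are not counts. Planned fits of edgeR and DESeq2 to the recovered reads were not run, and limma voom was fitted to those reads instead. Higher genes among all tested numbered 280 without a variance trend, 655 with total reads, 2009 with voom at the authors' library sizes and 395 to 842 when 1 library was left out. Lower genes numbered 297 without a filter, 144 without a trend, 883 with total reads, 1355 and 2783 with voom at the authors' sizes and at total reads, and 179 to 297 with 1 library left out. Of the 43 genes, 1 was lower without a filter, 7 at a mean of at least 2 RPKM, 0 without a trend, 15 with total reads, 7 with upper-quartile scaling, 15 with quantile normalisation, 5 with median-of-ratios, 11 and 28 with the voom fits, and 0 to 2 with 1 library left out. These counts stand beside 565 of 10440 tested genes lower at a mean of at least 2 RPKM. Of 16590 tested genes 587 were lower with upper-quartile scaling, 687 with quantile normalisation and 549 with median-of-ratios. The voom fits tested 16527 genes. The median log2 fold change of the 43 genes was -0.33 with total reads, -0.20 with median-of-ratios and -0.21 with upper-quartile scaling. It was -0.31 with quantile normalisation, -0.34 with voom at total reads and -0.20 to -0.16 with 1 library left out. The replicate differences of the groups showed little correlation (r = 0.03 over 16590 genes), which cannot show whether the samples were paired. With replicate numbers as a block 947 genes were higher and 397 lower, among them 2 of the 43.

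Genes near 0 turned sign. With median-of-ratios the log2 fold change was -0.0426 for CHAF1A, -0.0413 for FEN1, -0.0423 for MCM7 and -0.0439 for TYMS, and with upper-quartile scaling -0.0590, -0.0578, -0.0590 and -0.0605 for the same genes. With quantile normalisation CHAF1A was at -0.16, FEN1 at -0.24, MCM7 at -0.28, POLD1 at -0.0306 and TYMS at -0.23. With total reads CDC45 was at -0.0328, POLD1 at -0.11 and CHAF1A, FEN1, MCM7 and TYMS at -0.18. With voom at total reads CDC45 was at -0.0876, POLD1 at -0.11, CHAF1A, FEN1 and MCM7 at -0.17 and TYMS at -0.20, and with voom at the authors' sizes TYMS was at -0.0105. With 1 library left out the ranges were -0.22 to 0.0651 for CCNE1, -0.19 to 0.45 for CDC45, -0.0844 to 0.0868 for CHAF1A, -0.0830 to 0.0888 for FEN1, -0.18 to 0.0862 for GINS2, -0.10 to 0.0044 for GINS3, -0.12 to 0.0887 for GINS4, -0.0356 to 0.0397 for MCM7, -0.10 to 0.0470 for ORC6, -0.24 to 0.0231 for POLD3, -0.0943 to 0.0181 for POLE, -0.12 to 0.11 for RFC4 and -0.16 to 0.17 for TYMS. In those fits the lone library was assumed to vary like the others. The cause was not tested.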
